A study of Rattus norvegicus with 9 samples.

Results

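The genes described here are a list of 10 targets of the transcription factor Nrf2, namely Nqo1, Hmox1, Gclc, Gclm, Txnrd1, Srxn1, Slc7a11, Prdx1, Gsr and Sqstm1, picked out by symbol from a table of 34092 genes. Of the 10, 9 had a row in the table, and all 9 were among the 15958 genes tested. No row carried the symbol Srxn1, and this gene was not analysed here. The table gives RNA levels in rat primary hippocampal neurons that were taken from wild-type fetuses on embryonic day 17 and grown without mitotic inhibitors. At 7 days in vitro the neurons received vehicle (3 libraries), 1 nM human NPCT (aminoprocalcitonin, the peptide cut from the amino terminus of procalcitonin; 3 libraries) or 1 nM human PCT (procalcitonin, its parent peptide; 3 libraries) for 24 h. The comparisons ask whether each peptide altered the transcripts of these genes, and whether the fragment and its parent differed at the same dose and time.

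Nrf2, encoded by Nfe2l2, is held at a low level by Keap1, which presents it to a ubiquitin ligase built on Cul3 and Rbx1. When oxidants or electrophiles modify Keap1, Nrf2 accumulates, pairs with a small Maf protein and binds antioxidant response elements (AREs) near genes for glutathione synthesis, thioredoxin recycling, quinone reduction and haem breakdown. In brain tissue this response is known to be stronger in astrocytes than in neurons, and astrocytes supply neurons with precursors of glutathione.

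Between 13573056 and 17211642 fragments per library were recovered from the deposited FPKM (fragments scaled to gene length and library depth), and pairs of libraries within a group had a chi-square per degree of freedom of 4.16 to 21.6, where sampling noise gives about 1, highest for pairs with PCT replicate 3. The methods speak of pooled samples of biological triplicates and the labels of 3 replicates per group, so p values measure the spread between these libraries, which may in part be technical. The summed FPKM of 15 neuronal markers was 2265 to 2531 per library. Cells other than neurons were present as well, since 11 astrocyte markers summed to between 2160 and 2720 FPKM and 15 microglial markers to between 55.9 and 294 FPKM, whereas 9 markers of endothelium and pericytes reached 5.37 FPKM at most and Cldn5, a defining endothelial gene, was listed at 0 in all libraries. Fth1, which nearly every cell uses, was also listed at 0 throughout, so a 0 in this table was not read as absence. In such bulk RNA, fewer cells of a type and less RNA per cell cannot be told apart.

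Promoter windows of 300 bases (250 before and 50 after the transcription start, RefSeq sequences on build GRCr8) were matched for 8 of the 10 genes, and 4 windows are shown. In 3 of the 8 genes, Gclm, Prdx1 and Txnrd1, the window held the ARE core TGACNNNGC on either strand, which is 37.5% of them, and 13.1% of all 27457 genes with such a window held it. Slc7a11 is shown because its transcript changed most, and its window did not hold these letters. The core is in capitals. Each of the 3 matches lay on the strand opposite to the gene, so the capitals read as its reverse complement, and read on its own strand the match was TGACTAAGC in Gclm, TGACTCAGC in Prdx1 and TGACAAAGC in Txnrd1.
Gclm, chr2:213031885-213032184, plus strand: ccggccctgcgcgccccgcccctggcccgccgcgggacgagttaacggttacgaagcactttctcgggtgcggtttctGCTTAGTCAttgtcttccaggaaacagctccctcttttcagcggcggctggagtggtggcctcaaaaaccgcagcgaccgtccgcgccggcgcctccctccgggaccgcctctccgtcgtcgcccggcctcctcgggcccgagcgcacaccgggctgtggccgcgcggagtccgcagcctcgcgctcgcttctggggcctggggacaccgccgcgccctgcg
Prdx1, chr5:135383656-135383955, plus strand: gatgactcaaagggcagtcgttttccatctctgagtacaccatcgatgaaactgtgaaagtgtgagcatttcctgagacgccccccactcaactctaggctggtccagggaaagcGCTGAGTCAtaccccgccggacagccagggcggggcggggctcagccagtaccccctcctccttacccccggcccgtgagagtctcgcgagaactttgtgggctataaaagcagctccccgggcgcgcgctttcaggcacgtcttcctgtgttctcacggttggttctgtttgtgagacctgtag
Txnrd1, chr7:22755855-22756154, minus strand: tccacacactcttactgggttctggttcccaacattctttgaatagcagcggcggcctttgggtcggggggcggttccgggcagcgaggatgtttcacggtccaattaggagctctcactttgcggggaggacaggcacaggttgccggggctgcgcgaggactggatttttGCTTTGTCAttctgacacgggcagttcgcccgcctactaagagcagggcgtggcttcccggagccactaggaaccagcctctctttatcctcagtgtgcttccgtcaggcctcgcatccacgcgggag
Slc7a11, chr2:136668215-136668514, minus strand: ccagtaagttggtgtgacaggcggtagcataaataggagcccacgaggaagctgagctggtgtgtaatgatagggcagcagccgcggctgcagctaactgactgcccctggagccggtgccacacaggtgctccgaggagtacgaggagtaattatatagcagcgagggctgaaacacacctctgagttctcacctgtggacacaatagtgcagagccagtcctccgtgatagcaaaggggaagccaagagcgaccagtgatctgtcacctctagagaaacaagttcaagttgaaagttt
The first base of the match lay at position -172 in Gclm, -135 in Prdx1 and -78 in Txnrd1, counted from the start site. A second window of Txnrd1, from another start site, and the windows of Gclc, Nqo1, Sqstm1 and Srxn1 did not hold the core, which says only that these letters are absent within 300 bases. The letters TGATGNAA, an element bound by ATF4 that was searched on both strands in the same way, were found in 0 of the 8 genes and in 4.16% of all genes with a window.

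In the vehicle cultures, the members ranged from 221 to 21.2 FPKM, a scale that is corrected for gene length and so allows genes to be compared. Prdx1, a peroxidase that reduces hydrogen peroxide, had the highest level (221 ± 6.54 FPKM, SD, n = 3 libraries), followed by the autophagy receptor Sqstm1 (212 ± 8.16 FPKM), and the libraries of these 2 genes overlapped. The cystine importer Slc7a11 came next with 92.9 ± 7.63 FPKM, then the haem-degrading enzyme Hmox1 with 60.3 ± 0.855 FPKM. Nqo1 at 45.0 ± 2.82 FPKM and Txnrd1 at 43.6 ± 0.496 FPKM overlapped each other and lay above Gclc at 35.4 ± 1.80 FPKM. Gsr (22.7 ± 3.89 FPKM) and Gclm (21.2 ± 0.551 FPKM) had the lowest levels, and their libraries overlapped.

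**Figure D1:**
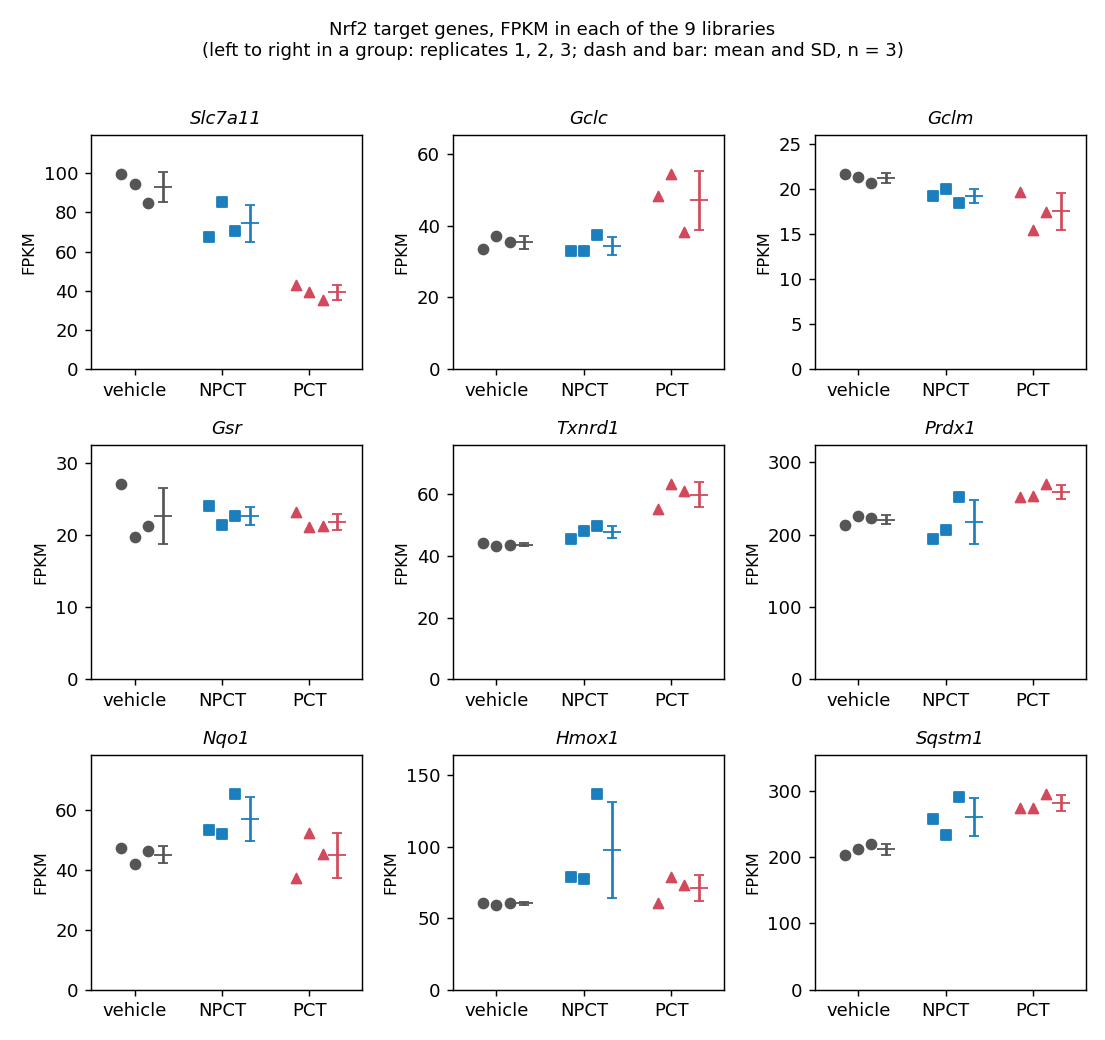
FPKM of the 9 Nrf2 target genes in each library, with 1 panel per gene, the 3 groups on the horizontal axis and FPKM on a vertical axis that starts at 0. Points are libraries (replicates 1, 2 and 3 from left to right) and the dash with its bar is the mean with SD (n = 3). Slc7a11 lies between 35.3 and 42.9 FPKM in the PCT libraries, below all vehicle libraries, and Hmox1 reaches 137 FPKM in NPCT replicate 3 alone.

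Slc7a11 fell with PCT and was the only member that passed the thresholds of the methods. Both an adjusted p no greater than 0.05 and a change beyond 1.5-fold were required, and were applied here to limma fits of log2 FPKM plus 0.1 over all 9 libraries, with Benjamini-Hochberg adjustment over all genes tested. Slc7a11 was thus 1 of 9 members called, in the lower direction, whereas 2.31% of all genes were called between PCT and vehicle and 1.72% were called lower. The 368 genes behind the first share became 172, 206 and 187 without vehicle replicates 1, 2 and 3. At any fold, 3 of 9 members had an adjusted p within 0.05, Txnrd1 and Sqstm1 above vehicle and Slc7a11 below, against 4.2% of all genes. Of the 9, 5 lay above vehicle, as did 51% of all genes, and their median log2 fold change was 0.23 against 0.01 over all genes. The groups did not overlap in 6 members and in 24.9% of all genes, with 4 members higher (13.1% of all genes) and 2 lower (11.9%).

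With NPCT, 0 of 9 members were called and 0.219% of all genes were. That share is not stable, since its 35 genes became 0 to 2 without any 1 vehicle or NPCT library or PCT replicate 2, 220 and 562 without PCT replicates 1 and 3, and 579 when only the 2 groups were fitted. At any fold 0 members had an adjusted p within 0.05, against 0.47% of all genes. At an unadjusted p under 0.05 were 4 members, Nqo1, Hmox1, Slc7a11 and Sqstm1, as were 29.3% of all genes. Limma-voom on the recovered fragments called 1, Hmox1, and 2.45% of all genes. It scaled the fragments by library totals alone, and its median log2 fold change over all genes was 0.046, against 0.006 in the main fit. The limma-voom values given for NPCT against vehicle carry this upward shift. Of the 9, 5 lay above vehicle, as did 50.8% of all genes, and their median log2 fold change was 0.01 against 0.01 over all genes. The groups did not overlap in 5 members and in 40.3% of all genes, with 4 members higher (20% of all genes) and 1 lower (20.3%).

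Between NPCT and PCT, Slc7a11 was again the only one of 9 members called, higher with NPCT, where 5.76% of all genes were called and 4.38% were called higher. The 919 genes behind the first share became 570, 528 and 525 without NPCT replicate 1, PCT replicate 1 and PCT replicate 2, 1623 without PCT replicate 3, and 454 when only the 2 groups were fitted. At any fold, 3 members had an adjusted p within 0.05 (16.3% of all genes), Slc7a11 higher and Gclc and Txnrd1 lower with NPCT. Of the 9, 5 lay higher with NPCT, as did 48.9% of all genes. The groups did not overlap in 4 members and in 33.4% of all genes, with 1 member higher (15.4% of all genes) and 3 lower (18%). The counts of members called were the same in each of the 9 fits that left out 1 library. Each pair of the 3 comparisons shares the libraries of 1 group, so that Slc7a11, low in the PCT libraries, enters 2 comparisons through the same values, and the comparisons are given side by side.

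**Figure D2:**
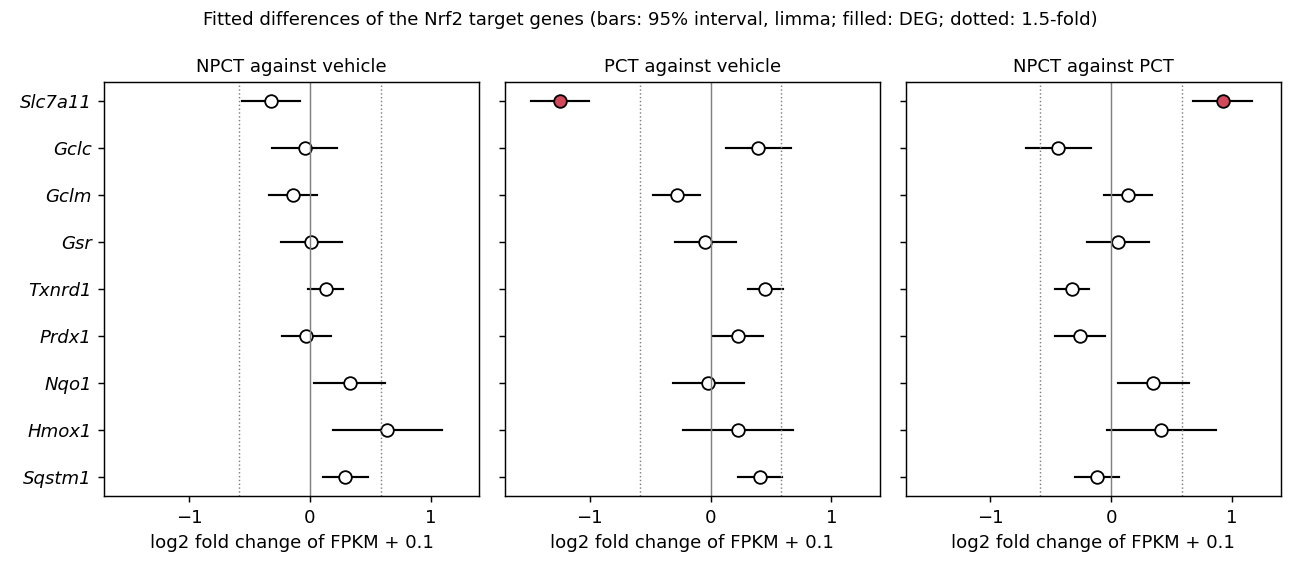
Fitted log2 fold changes of FPKM plus 0.1 for the 9 Nrf2 target genes in the 3 comparisons, with the 95% interval from limma as a bar. Filled points passed both thresholds and dotted lines mark a 1.5-fold change. Only Slc7a11 is filled, at -1.24 for PCT against vehicle and 0.92 for NPCT against PCT.

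Slc7a11 (ENSRNOG00000010210, chromosome 2 from 139453774 to 139528162, minus strand, in the authors' annotation on Rnor_6.0) encodes the exchanger of system xc-, which brings in cystine for glutathione synthesis and releases glutamate. It measured 99.6, 94.3 and 84.6 FPKM in the vehicle libraries, 67.6, 85.1 and 70.7 FPKM with NPCT and 42.9, 39.4 and 35.3 FPKM with PCT. All PCT libraries lay below every other library, and 1 NPCT library lay within the vehicle range. The log2 fold change was -1.24 (standard error 0.11) between PCT and vehicle, a level 2.37-fold lower (limma, adjusted p = 0.000595), and Slc7a11 ranked 28th of all genes by p. NPCT cultures held 1.89-fold more Slc7a11 RNA than PCT cultures, a log2 difference of 0.92 (adjusted p = 0.00192), with a 95% interval from 0.68 to 1.16. Between NPCT and vehicle the difference was -0.32 (standard error 0.11, adjusted p = 0.0929), with an interval from -0.57 to -0.08. With the gene length trend removed, that difference was -0.16. Both calls held in every fit that left out 1 library, with an adjusted p of at most 0.0056 and 0.00787.

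Markers of astrocytes and microglia were lower in the same PCT libraries. Of 11 astrocyte markers, 5 were called lower with PCT, against 1.72% of all genes, and none higher. Their median log2 fold change was -0.32, against 0.005 over all genes. The lowest were Aldh1l1 at -0.83 and Aldoc at -0.83, whereas Gfap stood at 0.25 (limma, adjusted p = 0.147). The summed level of the astrocyte markers was 2506 to 2687 FPKM with vehicle, 2464 to 2720 FPKM with NPCT and 2160 to 2228 FPKM with PCT. The log2 fold change of Slc7a11, -1.24, was lower than that of each of the 11 astrocyte markers. It lay within the range of the microglial markers given next. Of the 15 microglial markers, 5 were called lower, against 1.72% of all genes, with a median of -1.40 and a range from -2.57 to -0.09. Their sum was 89.2 to 104 FPKM with vehicle and 55.9 to 60.2 FPKM with PCT. The part of these cells in the result for Slc7a11 was not tested. Of 15 neuronal markers, 0 were called with PCT (2.31% of all genes), and 1 had an adjusted p of at most 0.05 (4.2% of all genes). The 10 oligodendrocyte markers tested had a median of 0.19 with PCT. Without overlap with vehicle, 7 of them lay higher (13.1% of all genes) and 1 lower (11.9%). The sum over 11 oligodendrocyte markers was 475 to 491 FPKM with vehicle and 431 to 449 FPKM with PCT, and their part was not tested.

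**Figure D3:**
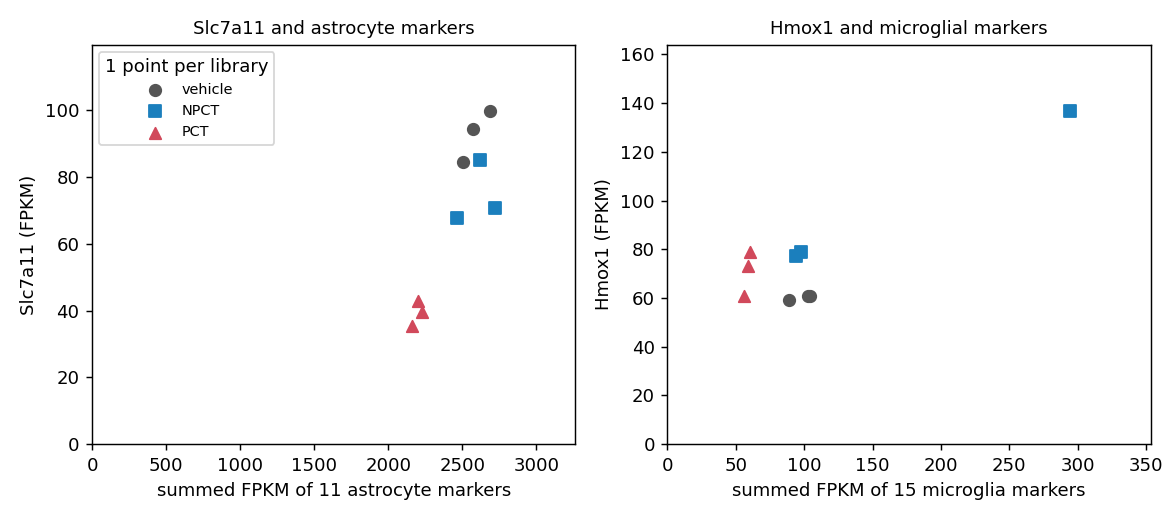
Slc7a11 against the summed FPKM of 11 astrocyte markers (left) and Hmox1 against that of 15 microglial markers (right), both axes in FPKM from 0, with 1 point per library. The 3 PCT libraries stand apart at low Slc7a11 and low astrocyte sums of 2160 to 2228 FPKM, and NPCT replicate 3 stands apart at 294 FPKM of microglial markers and 137 FPKM of Hmox1.

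Of the 3 enzymes of glutathione synthesis and recycling, 0 were called in any comparison. Gclc (ENSRNOG00000006302, chromosome 8 from 85059051 to 85097468, plus strand), the catalytic subunit of glutamate-cysteine ligase, measured 33.6, 37.2 and 35.4 FPKM with vehicle, 33.0, 32.9 and 37.3 FPKM with NPCT and 48.3, 54.4 and 38.3 FPKM with PCT. The PCT libraries were all above the others, PCT replicate 3 by little. The log2 difference was 0.40 (standard error 0.12) for PCT against vehicle (limma, adjusted p = 0.107), -0.04 for NPCT against vehicle (adjusted p = 0.843) and -0.44 for NPCT against PCT (adjusted p = 0.0394, under the 1.5-fold threshold), and the last p stayed under 0.05 only without PCT replicate 3, among the fits that left out 1 library, and was up to 0.118 in the others. Gclm (ENSRNOG00000013409, chromosome 2 from 225827504 to 225847874, plus strand), the modifier subunit, measured 21.7, 21.3 and 20.6 FPKM with vehicle, 19.2, 20.0 and 18.5 FPKM with NPCT and 19.6, 15.5 and 17.4 FPKM with PCT. Every peptide-treated library was below every vehicle library, by a log2 difference of -0.14 for NPCT (adjusted p = 0.314) and -0.28 for PCT (standard error 0.09, adjusted p = 0.117).

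The ratio of Gclc to Gclm, chosen after the values had been seen, was 1.67 ± 0.106 in vehicle, 1.79 ± 0.198 in NPCT and 2.73 ± 0.697 in PCT cultures (SD, n = 3 each). It was 2.46, 3.52 and 2.20 in the PCT libraries and 2.02 at most elsewhere (exact two-sided permutation test, p = 0.1 for PCT against vehicle, the smallest that 3 libraries against 3 allow, and p = 0.5 for NPCT). Every PCT library lay above vehicle for Gclc and below it for Gclm. The p for PCT was therefore fixed by those values and is no separate evidence. Gsr (ENSRNOG00000014915, chromosome 16 from 62197617 to 62241361, minus strand), which reduces oxidized glutathione, measured 27.1, 19.7 and 21.3 FPKM with vehicle, 24.0, 21.5 and 22.7 FPKM with NPCT and 23.1, 21.1 and 21.3 FPKM with PCT. All groups overlapped, and the 95% intervals of the log2 differences from vehicle were -0.24 to 0.27 for NPCT and -0.30 to 0.21 for PCT.

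In the thioredoxin branch, Txnrd1 (ENSRNOG00000009088, chromosome 7 from 26946125 to 26984400, minus strand), the cytosolic reductase of thioredoxin, measured 44.2, 43.3 and 43.4 FPKM with vehicle, 45.6, 48.0 and 49.7 FPKM with NPCT and 55.3, 63.3 and 60.9 FPKM with PCT. The 3 groups did not overlap, in the order vehicle, NPCT, PCT. The log2 difference between PCT and vehicle was 0.45 (standard error 0.06), or 1.37-fold, with an adjusted p of 0.00625 from limma that stayed at or below 0.0369 when any 1 library was left out, so that Txnrd1 passed the p but not the fold threshold. NPCT differed from vehicle by 0.13 (adjusted p = 0.208) and from PCT by -0.32 (adjusted p = 0.0139, and 0.0542 without NPCT replicate 1). Prdx1 (ENSRNOG00000017194, chromosome 5 from 135536413 to 135551990, plus strand) hands its oxidizing equivalents to thioredoxin. It measured 213, 226 and 223 FPKM with vehicle, 194, 207 and 252 FPKM with NPCT and 253, 254 and 270.4 FPKM with PCT, where the PCT libraries lay above all others and the NPCT libraries spanned the vehicle range. Its log2 difference from vehicle was 0.23 (standard error 0.09, adjusted p = 0.21) with PCT and -0.03 (adjusted p = 0.861) with NPCT.

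Nqo1, Hmox1 and Sqstm1 were higher in every NPCT library than in every vehicle library, as was Txnrd1 and as were 20% of all genes. Of Nqo1, Hmox1 and Sqstm1, 0 passed the thresholds. Nqo1 (ENSRNOG00000012772, chromosome 19 from 38422164 to 38437180, plus strand), a quinone reductase, measured 47.0, 41.8 and 46.2 FPKM with vehicle, 53.1, 52.0 and 65.2 FPKM with NPCT and 37.2, 52.1 and 45.1 FPKM with PCT. The PCT libraries spanned the vehicle range. The log2 difference from vehicle was 0.33 (standard error 0.13, limma, adjusted p = 0.133) with NPCT and -0.02 (adjusted p = 0.964) with PCT. Hmox1 (ENSRNOG00000014117, chromosome 19 from 14508616 to 14515456, plus strand), which breaks haem down to biliverdin, carbon monoxide and iron, measured 60.7, 59.3 and 60.8 FPKM with vehicle, 78.8, 77.2 and 137 FPKM with NPCT and 60.8, 78.9 and 73.2 FPKM with PCT. NPCT replicate 3 was far above all other libraries, and the same library had the highest microglial sum, 294 FPKM against 93.7 and 97.9 FPKM in the other 2 NPCT libraries. Whether microglia contributed to its Hmox1 was not tested. The log2 difference between NPCT and vehicle was 0.64 (standard error 0.20, adjusted p = 0.0811), 1.56-fold, and 0.37 without NPCT replicate 3 (adjusted p = 0.137), while limma-voom gave 0.69 (adjusted p = 0.0453). Between PCT and vehicle it was 0.23 (adjusted p = 0.606), and between NPCT and PCT 0.41 with a 95% interval from -0.04 to 0.86, or 0.15 without NPCT replicate 3.

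Sqstm1 (ENSRNOG00000003147, chromosome 10 from 35704730 to 35716294, minus strand) encodes p62, which binds Keap1 and delivers it to autophagy. It measured 204, 212 and 220.0 FPKM with vehicle, 257, 234 and 291 FPKM with NPCT and 275, 275 and 295 FPKM with PCT. All 6 peptide-treated libraries lay above the vehicle libraries, and the groups of the 2 peptides overlapped. The log2 difference from vehicle was 0.41 (standard error 0.08, limma, adjusted p = 0.0288) with PCT, 1.33-fold and thus below the fold threshold, and the p rose above 0.05 without any 1 vehicle library, NPCT replicate 1 or PCT replicates 2 or 3, to at most 0.128 (without vehicle replicate 1). With NPCT the difference was 0.29 (adjusted p = 0.0664). Nqo1 and Sqstm1 were also highest among the NPCT libraries in replicate 3. PCT and NPCT did not differ in Sqstm1 beyond the spread, with a 95% interval from -0.30 to 0.07 for NPCT minus PCT.

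By a measure of likeness, the root mean square difference of log2 levels over the 9 libraries, each centred on its mean, the genes nearest to Slc7a11 among 13748 with a symbol were Serpine2 (0.144), Cyp7b1 (0.157) and Manba (0.166). Serpine2, a secreted inhibitor of serine proteases, measured 234 ± 14.2 FPKM in vehicle, 212 ± 14.2 in NPCT and 119 ± 7.13 in PCT cultures (SD, n = 3 each). Nearest to Hmox1 were Gas6 (0.123), Mapk15 (0.146) and Spag6l (0.146). Gas6, a ligand of receptors on phagocytes, measured 84.2 ± 3.16, 121 ± 27.0 and 92.0 ± 7.80 FPKM in vehicle, NPCT and PCT cultures. These neighbours were selected by their levels in the same 9 libraries, so their resemblance to Slc7a11 or Hmox1 follows from the selection. The group means of the other 7 members spanned less than 1.5-fold.

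Among 14 genes that regulate Nrf2, limma on log2 FPKM called 0 in any comparison, while the adjusted p alone was at or below 0.05 for 1 gene with NPCT, 1 with PCT and 3 between the peptides, against 0.47%, 4.2% and 16.3% of all genes. The unadjusted p was under 0.05 for 6, 2 and 6 of the 14, against 29.3%, 18.9% and 33.1% of all genes. Limma-voom called Rbx1 higher with NPCT (0.67, adjusted p = 0.0331) and Maff higher with PCT (1.75, adjusted p = 0.0448), each 1 of 14, against 2.45% and 2.34% of all genes called by that tool. Over the 20 alternatives, limma-voom included, Rbx1 was called in 6, Maff in 3 and Cul3, between the peptides, in 1. With NPCT, 6 of the 14 did not overlap with vehicle, against 40.3% of all genes. Nfe2l2 itself measured 51.9, 49.7 and 47.2 FPKM with vehicle, 34.0, 39.3 and 50.04 FPKM with NPCT and 49.5, 51.6 and 40.7 FPKM with PCT, and the groups overlapped (limma, adjusted p = 0.202 for NPCT and 0.825 for PCT against vehicle). Mafk, a small Maf partner of Nrf2, was above every vehicle library with either peptide. It measured 5.33 ± 0.445 FPKM in vehicle, 7.72 ± 0.371 in NPCT and 7.09 ± 0.174 in PCT cultures (SD, n = 3 each). The log2 differences from vehicle were 0.53 with NPCT (limma, adjusted p = 0.0493) and 0.41 with PCT (adjusted p = 0.0387). Among the fits that left out 1 library, the first kept its p only without PCT replicates 1 or 3, the second only without NPCT replicate 3. In the others the adjusted p from limma was up to 0.169 and 0.154. Another small Maf, Mafg, measured 22.5 ± 1.15 FPKM with vehicle and 30.2 ± 1.61 FPKM with NPCT (adjusted p = 0.0509), and Maff measured 0.700 ± 0.263 FPKM with vehicle and 2.37 ± 1.04 FPKM with PCT (adjusted p = 0.0518), resting on 13 to 29 fragments per vehicle library.
The subunits of the ligase that marks Nrf2 for degradation lay on different sides of vehicle with NPCT. Keap1 measured 14.7 ± 0.794 FPKM with vehicle, 20.6 ± 2.02 with NPCT and 16.2 ± 1.64 with PCT, and Rbx1 85.7 ± 6.67, 132 ± 12.8 and 106 ± 21.9 FPKM in the same order, whereas the scaffold Cul3 measured 33.5 ± 1.61, 23.9 ± 1.52 and 34.1 ± 5.19 FPKM. For each of the 3 genes the NPCT and vehicle libraries did not overlap, and the adjusted p from limma was 0.0509, 0.053 and 0.053. Directly between the peptides, Keap1 was higher (log2 difference 0.34, adjusted p = 0.0462) and Cul3 lower (-0.50, adjusted p = 0.0188) with NPCT. The p for Keap1 stayed under 0.05 only without NPCT replicate 2 or PCT replicate 3 and was otherwise up to 0.147, and that for Cul3 reached 0.0656 and passed 0.05 without NPCT replicates 1 or 3 or PCT replicates 1 or 2. Gsk3b, a kinase that also marks Nrf2 for degradation, was below the vehicle and the PCT libraries in all NPCT libraries (adjusted p = 0.0833 and 0.0585). The other 6 genes, Bach1, Bach2, Nfe2l1, Btrc, Syvn1 and Crebbp, had adjusted p values above 0.05 in all 3 comparisons, and of these only Crebbp did not overlap between 2 groups, lower with PCT than with vehicle (-0.16, limma, adjusted p = 0.372).

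Of 32 further Nrf2 targets, 30 had a row and 24 were tested. With PCT, 1 was called higher and 4 lower, against 2.31% of all genes called in either direction, with a median log2 fold change of -0.07 against 0.01 over all genes. With NPCT, 2 were called higher and 0 lower, against 0.219% of all genes, with a median of 0.17 against 0.01. Limma-voom called 2 higher with NPCT (2.45% of all genes), Blvrb and Ftl1, and not Gstm3. Ftl1, the ferritin light chain, named after its values were seen, measured 803 ± 34.2 FPKM with vehicle and 1237 ± 196 FPKM with NPCT (0.61, adjusted p = 0.0509 by limma on log2 FPKM). Between NPCT and vehicle the 15 neuronal markers had a median of -0.21, with 8 of them lower in every NPCT library than in every vehicle library (20.3% of all genes), and the 10 oligodendrocyte markers tested a median of 0.28, with 9 above 0. The summed microglial markers stood apart from vehicle in NPCT replicate 3 alone, at 294 FPKM, and were 97.9 and 93.7 FPKM in NPCT replicates 1 and 2 against 89.2 to 104 FPKM with vehicle. Mitochondrial transcripts made up 3.7 to 4.17% of NPCT and 5.18 to 5.84% of vehicle libraries. The part of these differences in the medians of the target lists was not tested. The 4 lower with PCT were Gsta4 (46.3 ± 2.22 to 23.2 ± 1.12 FPKM, log2 fold change -0.998, limma, adjusted p = 0.00244) and Gstm1 (190.5 ± 8.47 to 121 ± 6.85 FPKM, -0.65, adjusted p = 0.00251), 2 glutathione transferases, the microsomal transferase Mgst1 (45.1 ± 3.06 to 28.3 ± 4.02 FPKM, -0.68, adjusted p = 0.0297) and the aldehyde oxidase Aox1 (10.1 ± 1.04 to 6.45 ± 1.03 FPKM, -0.65, adjusted p = 0.0233). Against NPCT, a comparison that rests on the same PCT libraries and is therefore no separate evidence, the differences of these 4 genes were 1.39, 0.81, 0.91 and 1.16 on the log2 scale, all called higher with NPCT as were 4.38% of all genes. Gsta4 and Gstm1 kept their calls against vehicle in every alternative fit. Mgst1 lost its call without any 1 vehicle library, NPCT replicate 2 or PCT replicates 1 or 3, and Aox1 without vehicle replicates 1 or 2 or PCT replicate 1, with an adjusted p of up to 0.125 and 0.105, both without vehicle replicate 1. Aox1 was also not called when only the 2 groups were fitted (limma, adjusted p = 0.0716). With 1 FPKM added it fell below the fold threshold (-0.583). Summed astrocyte and microglial markers were lower in the same PCT libraries, as given for Slc7a11, and their part was not tested.
Gstm3 was the 1 target called higher with PCT, by 5.91 on the log2 scale (limma, adjusted p = 0.000138), from 0.348 ± 0.111 to 28.1 ± 11.2 FPKM, a difference that depends on the value added before the logarithm and was 4.35 with 1 FPKM added. With NPCT it measured 1.69 ± 0.406 FPKM and was called higher as well (2.00, adjusted p = 0.0493), on 4 to 7 fragments per vehicle library. With 1 FPKM added this was 0.99 (adjusted p = 0.0666), and limma-voom did not call it (adjusted p = 0.245). Blvrb, which reduces biliverdin and so acts downstream of Hmox1, rose with NPCT from 21.0 ± 0.786 to 32.5 ± 0.925 FPKM (log2 fold change 0.63, adjusted p = 0.0493) and measured 29.1 ± 4.66 FPKM with PCT. The NPCT calls of Gstm3 and Blvrb were lost without any 1 vehicle or NPCT library or PCT replicate 2, at an adjusted p of up to 0.169. Of the further targets that lay lower with NPCT than with vehicle, Me1 had the smallest adjusted p (-0.25, adjusted p = 0.0848). Fth1, the ferritin heavy chain that stores the iron set free from haem, was listed at 0 in all 9 libraries and its value is not read as a level.

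**Figure D4:**
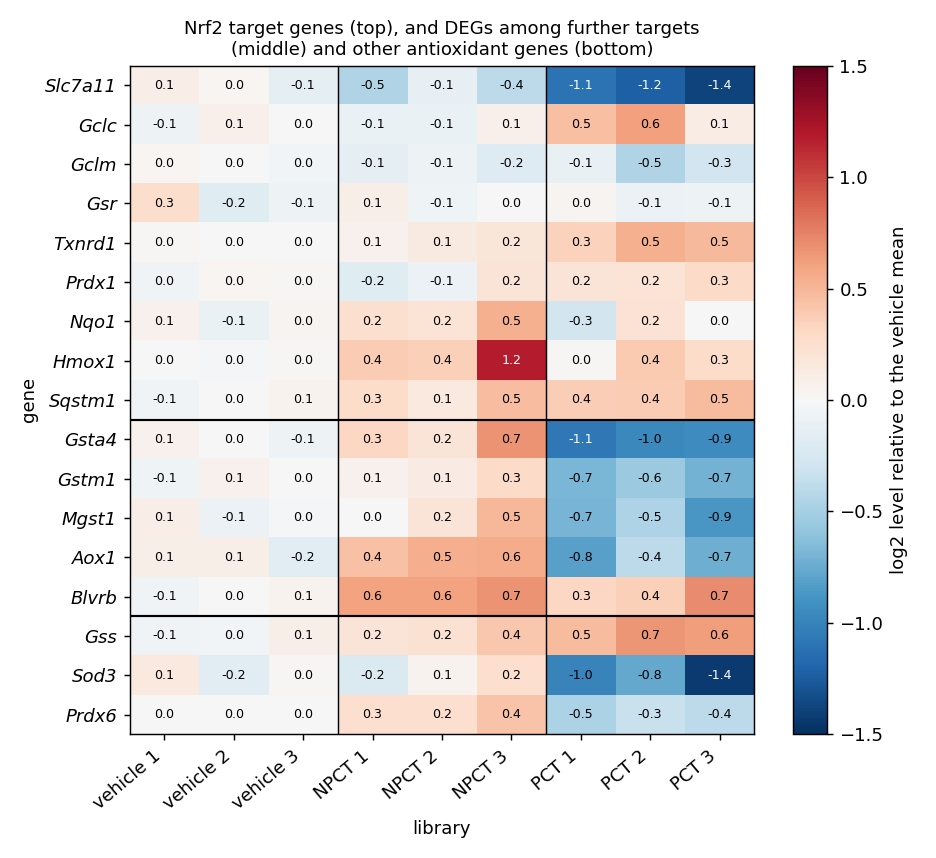
Log2 level in each library relative to the vehicle mean, for the 9 Nrf2 target genes (top), 5 of the further targets (middle) and 3 of the other antioxidant genes (bottom) that were called in a comparison (DEGs), with libraries on the horizontal axis and colours from -1.5 to 1.5. Gstm3, called in all comparisons, lies beyond this scale and is not drawn. Blue cells in all 3 PCT columns include Slc7a11, Gclm, Gsta4, Gstm1, Mgst1, Aox1, Sod3 and Prdx6, and red cells in the same columns include Gclc, Txnrd1, Blvrb and Gss.

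Among 27 other antioxidant genes, 26 were tested, and Gpx4, at 0 to 5 fragments per library, was not. The median log2 fold change was 0.24 with NPCT, against 0.01 over all genes, and limma on log2 FPKM called 0, with 13 of 26 at an unadjusted p under 0.05 (29.3% of all genes) and 2 called by limma-voom (2.45% of all genes), Prdx5 and Sod1, named after their values were seen. The neuronal and oligodendrocyte markers and the mitochondrial share given for the further targets, and the microglial markers of NPCT replicate 3, apply to the same libraries, and their part was not tested. With PCT the median was 0.07, against 0.01 over all genes, with 1 called higher and 1 lower, against 2.31% of all genes called. Limma-voom called 1 higher and 2 lower (2.34% of all genes), Gss, Sod3 and in addition Selenop, a secreted selenium carrier named after its values were seen, at 34.1 ± 2.06 FPKM with vehicle and 22.3 ± 2.15 FPKM with PCT (-0.61, adjusted p = 0.0628 by limma on log2 FPKM). Gss, glutathione synthetase, rose with PCT from 8.52 ± 0.477 to 12.9 ± 0.897 FPKM (log2 fold change 0.59, limma, adjusted p = 0.00925), with all 3 PCT libraries above the rest. It lay just above the fold threshold and was not called without vehicle replicates 1 or 2 or PCT replicates 2 or 3, with a log2 fold change of 0.55 to 0.57. Gss also fell below that threshold with 1 FPKM added (0.542), quantile normalization (0.584) or the gene length trend removed (0.56). Sod3, the extracellular superoxide dismutase, fell with PCT from 12.5 ± 1.32 to 5.98 ± 1.37 FPKM (-1.07, adjusted p = 0.0148, 0.0731 without vehicle replicate 1 and 0.063 without vehicle replicate 3). Summed astrocyte and microglial markers were lower in the same PCT libraries, as given for Slc7a11, and their part in the genes lower with PCT was not tested. Prdx6, a peroxiredoxin that uses glutathione, measured 132 ± 0.787 FPKM with vehicle, 164 ± 11.8 with NPCT and 100.0 ± 4.93 with PCT (-0.40 against vehicle, adjusted p = 0.0115, below the fold threshold, and up to 0.0568 without any 1 vehicle library), and was called higher with NPCT than with PCT (0.71, adjusted p = 0.000544), as was Sod3 (1.10, adjusted p = 0.00728). Glrx5, a mitochondrial glutaredoxin, had the smallest adjusted p with NPCT, 0.0493, at 22.0 ± 1.47 FPKM in vehicle and 31.7 ± 2.23 FPKM in NPCT cultures, below the fold threshold. The p rose above 0.05 without any 1 vehicle or NPCT library or PCT replicate 2, to at most 0.169. Among the genes that lay lower Glrx had the smallest (-0.29, adjusted p = 0.059). Among those lower with NPCT than with PCT, it was Glrx3, at -0.54 (adjusted p = 0.00391, below the fold threshold).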

How the data were processed

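RNA was sequenced from 9 libraries of cultured rat hippocampal cells, 3 per group as the labels give them. Per the labels' processing notes and the methods, the authors aligned reads with HISAT2 2.0.5 to Rnor_6.0, counted fragments with featureCounts 1.5.0-p3 and deposited FPKM, beside a gene length column. The authors tested counts with DESeq2, but the values used here are FPKM, so limma 3.58.1 (R 4.3.3, trended variance) was fitted to log2(FPKM + 0.1) of genes whose FPKM averaged 0.5 or more, over 9 libraries and 3 groups, after size factor scaling. Whole fragments were recovered from FPKM and length for all values (tolerance 0.01) and tested with limma-voom, scaled by library totals without size factors. The members and gene lists were chosen with earlier results of these data known. Named were all members, all listed regulators (with values for Nfe2l2 and those whose groups did not overlap) and, of the other lists, genes called in any comparison or with the smallest adjusted p in a direction. Neighbours in likeness were named for members whose group means spanned over 1.5-fold. The fits were tested on simulated data. Promoter windows came from RefSeq (GRCr8), a different build from the table, and were matched by symbol.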

Additional observations from a re-analysis of the deposited data

How the results depend on the processing

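Over 20 alternatives, 9 of which left out 1 library each, 50 of 66 results for single genes kept their direction and their side of the thresholds. The alternative with FPKM as deposited gave the same 35, 368 and 919 calls over all genes as the main fits. All size factors were 1, since the deposited FPKM were already balanced between libraries by this measure, so that alternative was no test. The number of Nrf2 targets called was 1 with limma-voom on recovered fragments against 0 for NPCT against vehicle, where Hmox1 was gained, and stayed between 0 and 0, 1 and 1, and 1 and 1 in the 3 comparisons when 1 library was left out. Their median log2 fold change for PCT against vehicle was 0.157 with quantile normalization and 0.149 with the gene length trend removed, with or without the replicate block, and 0.146 to 0.247 with 1 library left out. For NPCT against vehicle this median ranged from -0.020 to 0.139 and for NPCT against PCT from 0.015 to 0.097. Genes near 0 changed sign. Gsr for NPCT against vehicle was -0.006 with quantile normalization and -0.025 with the gene length trend removed, with or without the block, and -0.082 to 0.146 with 1 library left out. Prdx1 for NPCT against vehicle was 0.013 with limma-voom and -0.138 to 0.049 with 1 library left out, and for PCT against vehicle Gsr ranged from -0.137 to 0.091, Nqo1 from -0.134 to 0.109 and Nfe2l2 from -0.144 to 0.027. Over all genes, the 35 called with NPCT became 579 when only the 2 groups were fitted and 9 with no filter on low values, and 0 to 562 with 1 library left out, the 368 with PCT 172 to 398, and the 919 between the peptides 454 and 525 to 1623. The cause of these changes was not tested. Same-numbered libraries did not deviate together (r from -0.072 to 0.034), so the numbers were not read as pairs. With the replicate block, Slc7a11 kept both calls, Mgst1 lost its call with PCT (limma, adjusted p = 0.0618) and Rbx1 gained one with NPCT (0.0379). Low levels limit Maff and Gstm3 in vehicle.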
